A study of Mus musculus with 20 samples.

Results

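The genes described here encode the proteins of the cytosolic ribosome. They were taken from the count table by symbol: every gene named Rpl or Rps followed by a number and at most 1 letter, together with Rplp0, Rplp1, Rplp2 and Rpsa, and without Rps27l. This rule, which used no measured value, found 79 of the 25719 genes in the table, 30 of the small and 49 of the large subunit. The filter on low counts kept all 30 small subunit genes and 46 of the large, so 76 were tested. The other 3 were large subunit paralogs: Rpl10l had no count in any library, and Rpl3l and Rpl39l never had more than 3 counts in 1 library. The rule passes over some genes of the same ribosome, such as Rps3a1, Fau and Rack1, which are described separately near the end.

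RNA was sequenced from keratinocytes of ear and back skin, sorted by flow cytometry, from 20 mice in 4 groups of 5. All mice carried floxed Cyp11b1 alleles (Cyp11b1 L2/L2) and all received tamoxifen on 5 consecutive days, with cells taken on day 6. Conditional knockout mice (cKO) also carried K14-CreERTam, a Cre recombinase that tamoxifen activates in cells using the Krt14 promoter, whereas controls were littermates without Cre. Tamoxifen went onto the skin (topical, 20 µl on the ear and 100 µl on the back, called local in the labels) or into the peritoneum (systemic, 100 µl at 10 mg/ml). The back hair of topical mice was shaved first, and the solvent differed as well, ethanol on the skin and oil with ethanol by injection. Route, shaving and solvent therefore cannot be told apart. The groups are called topical control, topical cKO, systemic control and systemic cKO, each with 5 mice. Cyp11b1 encodes the enzyme for the last step of corticosterone synthesis, and the study asked how loss of glucocorticoid synthesis in skin differs between the routes.

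A ribosome joins a small subunit, which reads the mRNA, and a large one, which links the amino acids, and most of its proteins are present in a single copy encoded by a single gene. Their mRNAs are among the most abundant of a cell and carry a run of pyrimidines at the very start, the terminal oligopyrimidine (TOP) motif, through which mTOR and Larp1 control their translation and stability together. In the epidermis, basal keratinocytes divide and make much protein, which takes many ribosomes.

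Library totals were between 11588851 and 50082771 counts, lowest in systemic cKO 2 and highest in systemic cKO 4. The keratinocyte markers Krt5, Krt14, Krt1, Krt10, Trp63, Itga6 and Dsg3 were present in every group and summed to between 69994 and 104435 CPM per library (counts scaled to a library total of 1000000). Cyp11b1 itself never exceeded 6 counts in a library, which is too few to check the genotype labels. Transcripts of 12 predicted genes of satellite-like sequence set 6 libraries apart, all 5 systemic controls and systemic cKO 2, with 79.4 to 37287 CPM, from the other 14 with at most 42.5 CPM. In controls this split is the same as the route. Marker sums of other cell types stayed at or below 37.4 CPM for immune cells, 32.0 CPM for fibroblasts, 35.0 CPM for melanocytes, 10.2 CPM for endothelium, 7.25 CPM for erythroid cells and 6.72 CPM for muscle. The sebaceous gland list ran from 172 to 3341 CPM.

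The members together took a smaller share of the counts after injection. They made up 8.99% ± 0.684 of all counts in topical controls, 8.72% ± 0.885 in topical cKO, 7.31% ± 1.01 in systemic cKO and 5.88% ± 1.04 in systemic controls (mean ± SD, n = 5 each). In mouse number order the topical controls had 9.90, 8.69, 8.14, 9.43 and 8.79%, and the systemic controls 6.90, 5.27, 4.81, 7.08 and 5.32%. Every systemic control lay below every topical control. The systemic cKO libraries had 6.47, 7.99, 8.58, 7.34 and 6.18%, overlapping the systemic controls at the low end and the topical cKO libraries (9.57, 8.25, 8.10, 9.77 and 7.89%) at the high end. The exact Clopper-Pearson 95% interval of the lowest share, that of systemic control 4, was 4.80 to 4.82%, and such intervals cover counting error only. In sequencing of a fixed amount of RNA, a lower share cannot be told apart from more RNA of other genes, nor fewer cells of one type from less RNA per cell.

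Both subunits followed the same order of groups. Small subunit genes took 3.43% ± 0.232 in topical controls, 3.30% ± 0.313 in topical cKO, 2.68% ± 0.448 in systemic cKO and 2.06% ± 0.415 in systemic controls, and large subunit genes took 5.56% ± 0.456, 5.42% ± 0.575, 4.64% ± 0.567 and 3.82% ± 0.630. The ratio of large to small subunit counts was 1.62 ± 0.0382 in topical controls, 1.64 ± 0.0353 in topical cKO, 1.74 ± 0.116 in systemic cKO and 1.87 ± 0.0939 in systemic controls. This ratio leaned on the pair of most abundant members: without Rplp0 and Rpl4 it was 1.23 ± 0.0465, 1.25 ± 0.0155, 1.26 ± 0.0435 and 1.30 ± 0.0514 in the same order of groups. Among the 6 libraries with satellite-like transcripts the full ratio ran from 1.73 to 1.98, and among the other 14 from 1.55 to 1.75.

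**Figure D1:**
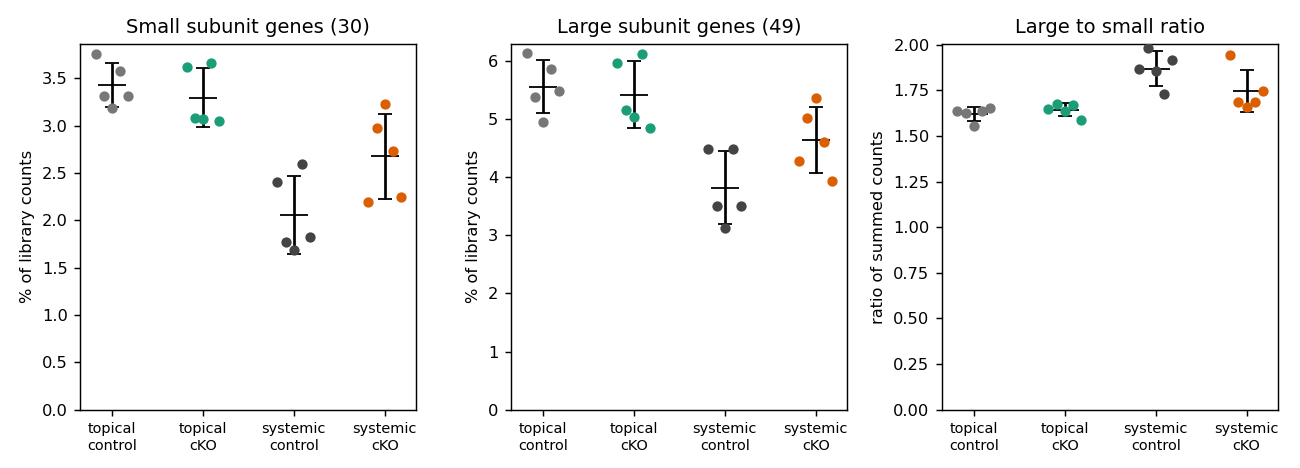
Percent of library counts from small and large subunit genes, and the ratio of the 2 sums, by group (x axis). Points are libraries, bars the mean ± SD of 5. In the small and the large subunit panels all 5 systemic controls lie below all 5 topical controls, and the ratio is highest in systemic controls (1.73 to 1.98).

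Single members spanned a wide range of levels. Levels of single genes are given as CPM scaled with TMM factors, which correct the library total for its composition. Of the 76 tested members, 13 were among the 100 genes of highest mean CPM and 72 among the 500. Rplp0, the base of the stalk that recruits elongation factors, had the highest mean at 8262 CPM, ahead of Rpl4 at 4660 CPM and Rpl13 at 2738 CPM. The lowest were Rpl38 at 118 CPM and Rps21 at 134 CPM. Per kilobase of coding sequence, the scale on which genes can be compared, the median was 2110 CPM per kb for small and 1428 CPM per kb for large subunit genes. On that scale Rplp0 had 8688, Rps27 6239, Rplp1 4891 and Rpl32 4880 CPM per kb, and Rpl22 had 432, Rps10 488 and Rps21 537 CPM per kb. Rpl41 reached 14776 CPM per kb, but its coding sequence of 75 bases is a small part of its mRNA, so that value overstates it.

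The start of these genes is shown for 6 members on which the route comparison below turns: Rpl12, Rpsa and Rps12, which fell most among the small and large subunit genes, and Rplp0, Rpl4 and Rpl13, which are the 3 most abundant and were not called. Each stretch is 30 bases before to 30 after the RefSeq transcription start (GRCm38.p6), 5′ to 3′ on the strand of the gene, and capitals mark a longest run of C and T in it.
Rpl12 (chr2:32961682-32961741, plus strand): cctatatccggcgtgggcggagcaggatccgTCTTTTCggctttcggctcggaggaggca
Rpsa (chr9:120127736-120127795, plus strand): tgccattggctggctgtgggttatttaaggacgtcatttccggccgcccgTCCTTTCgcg
Rps12 (chr10:23787180-23787239, minus strand): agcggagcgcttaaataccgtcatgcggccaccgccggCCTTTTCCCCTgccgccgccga
Rplp0 (chr5:115559437-115559496, plus strand): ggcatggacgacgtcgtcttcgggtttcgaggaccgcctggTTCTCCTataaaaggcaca
Rpl4 (chr9:64173357-64173416, plus strand): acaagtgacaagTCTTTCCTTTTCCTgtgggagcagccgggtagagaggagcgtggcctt
Rpl13 (chr8:123102320-123102379, plus strand): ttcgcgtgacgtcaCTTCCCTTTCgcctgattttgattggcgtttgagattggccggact
All 6 hold a run of at least 7 pyrimidines in the stretch, the longest in Rpl4 with 14 and Rps12 with 11. Relative to the annotated start, the marked runs begin at -18 in Rpl4 and -16 in Rpl13, before the transcript. They begin at 1 in Rpl12, 8 in Rps12, 11 in Rplp0 and 20 in Rpsa. The marks do not show that these mRNAs begin with a TOP motif, and how common runs of 7 are elsewhere was not counted.

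RefSeq promoter windows of 300 bases (250 before to 50 after the start) were at hand for 59 members, with 70 windows in all. A run of at least 8 pyrimidines within 50 bases of the start stood in 80.0% of the members' windows against 35.7% of all 32851 windows. CTTTC in the same stretch stood in 51.4% against 12.8%. On both strands of the whole window, CCGGAAG stood in 35.7% against 8.86%, AAGATGGC in 10.0% against 2.75%, GGGCGG in 58.6% against 35.7%, CACGTG in 11.4% against 7.15% and TATAAA in 8.57% against 13.6%. GGAAG, which CCGGAAG contains, stood in 92.9% against 71.4%. The pyrimidine run was in 24 of the 30 genes with a window that were called lower in the route comparison in controls and in 24 of the 26 tested genes with a window that were not called. These are matches of letters and do not show that a factor binds.

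In controls, the ribosomal protein mRNAs were lower after injected than after topical tamoxifen. All 76 tested members had a negative log2 fold change, where 49.9% of the 12424 genes tested did, and 40 of the 76 fell at an adjusted p under 0.05 (edgeR's quasi-likelihood test, Benjamini-Hochberg over all genes tested), where the share of all genes called lower was 8.16%. None rose, although 10.2% of all genes were called higher. By calls and medians the subunits were close: 16 of 30 small and 24 of 46 large subunit genes were called. Their median log2 fold changes were -0.81 and -0.83, against 0.00081 over all genes tested. The ratio of large to small subunit counts differed, however, at 1.62 ± 0.0382 in topical and 1.87 ± 0.0939 in systemic controls. The subunits were not tested against each other. At an unadjusted p under 0.05, 56 members were lower, against 15.2% of all genes. In 30 members, 10 small and 20 large, the 5 systemic controls all lay below the 5 topical controls, which was so for 6.26% of all genes. The members just inside the threshold were Rpl38 and Rps18 (adjusted p 0.0437 and 0.0455) and just outside it Rpl27 and Rpl34 (0.0503 and 0.0544). These were chosen after their values were seen.

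Rpl12 (ENSMUSG00000038900), a large subunit protein at the base of the stalk, had the smallest adjusted p. Topical controls had 401, 436, 356, 343 and 478 CPM and systemic controls 168, 97.8, 94.4, 177 and 91.1 CPM. The groups did not overlap, and even the highest systemic control lay well below the lowest topical one. The log2 fold change was -1.68 (SE 0.25, adjusted p 1.73e-04). Topical cKO libraries, with 404, 299, 386, 325 and 451 CPM, overlapped the topical controls, with topical cKO 3 and 5 below all of them. Systemic cKO libraries were spread between the others at 135, 302, 314, 208 and 169 CPM.

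Rpsa (ENSMUSG00000032518), a small subunit protein also known as a laminin receptor, had 2133, 2036, 1693, 1974 and 2428 CPM in topical controls and 1057, 628, 507, 891 and 472 CPM in systemic controls. All systemic controls were below all topical ones (log2 fold change -1.53, SE 0.25, adjusted p 4.18e-04). In topical cKO it had 2124, 1477, 2001, 1646 and 1993 CPM, and in systemic cKO 991, 1776, 1767, 1222 and 1035 CPM. Systemic cKO 2 and 7 lay under the highest systemic control, and the other 3 systemic cKO libraries above all systemic controls.

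Rps12 (ENSMUSG00000061983), a protein of the small subunit's beak, had 699, 764, 452, 712 and 806 CPM in topical controls and 332, 198, 158, 306 and 139 CPM in systemic controls. The lowest topical value, from topical control 5, was still above the highest systemic one (log2 fold change -1.60, SE 0.27, adjusted p 4.98e-04). Topical cKO had 676, 509, 709, 584 and 765 CPM and systemic cKO 284, 555, 615, 449 and 309 CPM.

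Rpl29 and Rpl17 complete the 5 with the smallest adjusted p. Rpl29, a large subunit protein, had 507, 495, 468, 429 and 588 CPM in topical and 294, 154, 145, 226 and 108 CPM in systemic controls (log2 fold change -1.42, SE 0.25, adjusted p 6.20e-04). Rpl17, which lines the exit tunnel of the nascent chain, had 532, 563, 428, 555 and 610 CPM in topical and 302, 178, 170, 311 and 152 CPM in systemic controls (log2 fold change -1.27, SE 0.22, adjusted p 6.52e-04). In both genes the groups were fully apart, and systemic controls 3, 4 and 6 were the lowest.

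**Figure D2:**
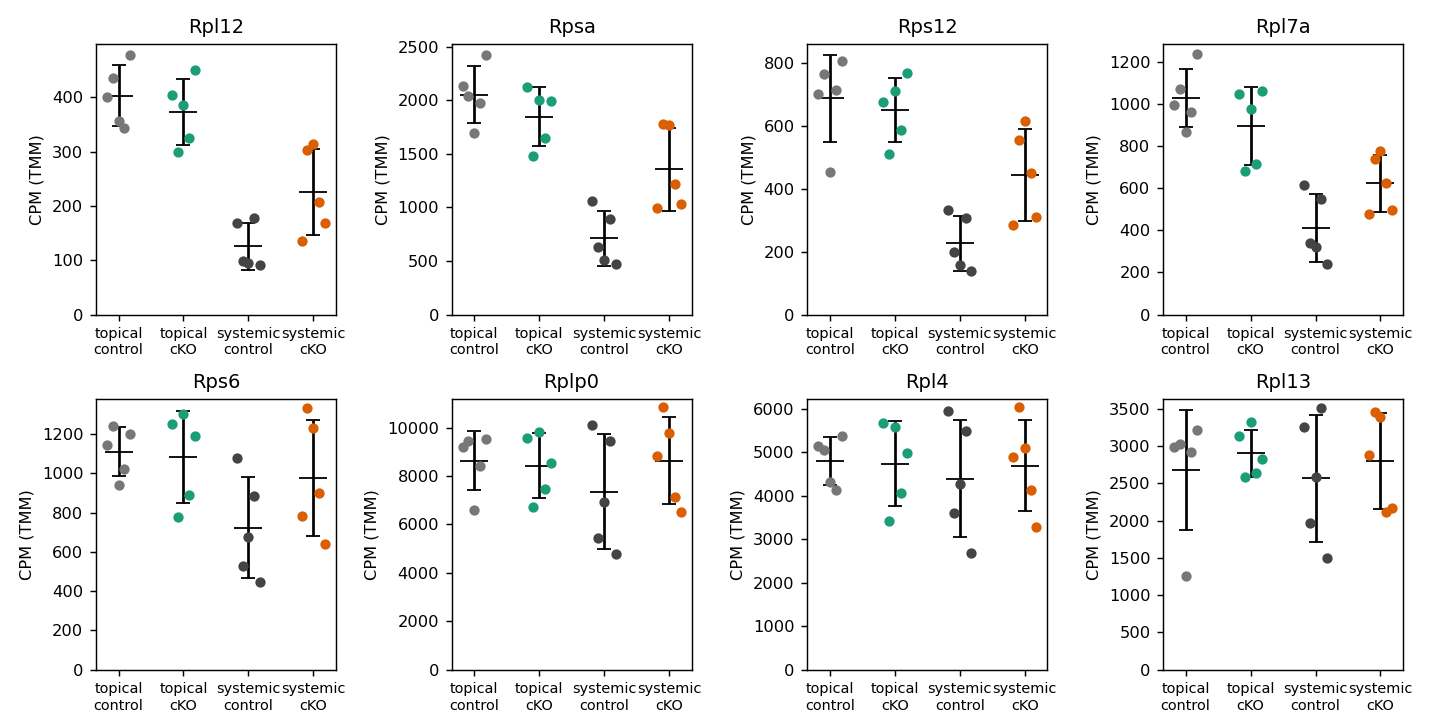
CPM (TMM-scaled, y axes start at 0) of 8 members by group. Points are libraries, bars the mean ± SD of 5. Rpl12, Rpsa, Rps12 and Rpl7a are lower in every systemic control than in every topical control, whereas the groups overlap for Rps6, Rplp0, Rpl4 and Rpl13.

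The fall was not of equal size in all members with a known task. Of the small subunit, Rps4x (log2 fold change -1.24, adjusted p 0.00200), Rps24 (-1.11, 0.00334) and Rps15, which contacts the decoding site (-0.97, 0.0169), fell, as did Rps3 at the mRNA entry (-0.78, 0.0386). Rps6, the substrate of S6 kinase, had 1144, 1240, 938, 1023 and 1201 CPM in topical and 1075, 528, 677, 884 and 448 CPM in systemic controls. Those groups overlapped through systemic control 1, and Rps6 was not called (-0.62, SE 0.25, adjusted p 0.0934). Rps27a, made as a fusion with ubiquitin (-0.60, adjusted p 0.109), Rps26 (-0.39, 0.378), Rps19 (-0.16, 0.696) and Rps2 (-0.13, 0.755) were not called either.

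Of the large subunit, the exit tunnel protein Rpl39 fell (log2 fold change -1.45, adjusted p 0.00188), with 338, 355, 251, 332 and 386 CPM in topical and 187, 93.9, 93.0, 165 and 67.9 CPM in systemic controls, again without overlap. Rpl5 and Rpl11, which with the smallest ribosomal RNA can bind Mdm2, fell less (-0.78 and -0.79, adjusted p 0.0358 and 0.0257). Rpl23 (-1.35, adjusted p 0.00278) and Rpl26 (-0.91, 0.0129), also linked to p53, Rpl22 (-1.12, 0.00310) and Rpl38 (-0.85, 0.0437) fell. Rpl3 of the peptidyl transferase centre (-0.68, adjusted p 0.0609), Rpl10 (-0.68, 0.0611), Rpl13a (-0.58, 0.127) and Rpl41 (-0.27, 0.582) did not pass. Calls were also gained: Rpl3 and Rpl10 were each called lower in 6 of 14 other settings, DESeq2 and limma voom among them, and without systemic control 1 or 5. Rplp1 was called in 5 of the 14, Rps6 and Rps27a in 3 and Rpl13a in 2. The calls of Rps3, Rpl5, Rpl11 and Rpl38 were lost when any 1 of 5 to 7 of the 10 libraries was left out, systemic controls 3, 4 and 6 among them each time, and without systemic control 3 their adjusted p was 0.110, 0.0941, 0.0700 and 0.117. That of Rps15 was lost without systemic control 3 (adjusted p 0.0535). Among the 14 other settings the call of Rps3 was lost in 4, that of Rpl5 in 3 and those of Rpl11 and Rpl38 in 2 each. These include both covariates for satellite-like transcripts, described below.

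The stalk shows how far apart members of 1 structure were. Rplp2 fell (log2 fold change -1.02, SE 0.28, adjusted p 0.0151), whereas Rplp1 (-0.70, 0.28, 0.0825) and Rplp0 (-0.23, 0.25, 0.545) did not pass. Rplp0 had 9186, 9440, 6592, 8418 and 9527 CPM in topical and 10126, 5456, 6944, 9466 and 4771 CPM in systemic controls. Systemic control 1 held the highest Rplp0 level of these 10 libraries and systemic control 6 the lowest. Rpl4 had 5160, 5062, 4311, 4126 and 5370 CPM against 5955, 3603, 4270, 5483 and 2691 CPM, which overlap likewise (-0.13, SE 0.24, adjusted p 0.750). Rpl13 and Rps7, singled out after their values were seen, had the smallest changes, -0.06 (SE 0.27) and -0.09 (SE 0.26). The differences between members were not tested against each other.

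The systemic libraries did not move as a block. Relative to the mean of the topical controls on the log2(CPM + 1) scale, the median small subunit gene was at -0.29, -1.32, -0.96, -0.23 and -1.69 in the systemic controls, and the median large subunit gene at -0.31, -1.18, -0.99, -0.35 and -1.60. Systemic controls 1 and 5 thus stood near the lower topical libraries, of which topical control 5 was at -0.46 and -0.35 and topical cKO 3 at -0.44 and -0.46, while systemic controls 3, 4 and 6 were far lower. In the systemic cKO libraries the small subunit medians were -0.71, 0.043, 0.075, -0.50 and -0.75 and the large subunit medians -0.64, 0.042, 0.063, -0.46 and -0.80. Systemic cKO 4 and 5 were at the topical level. The median SD of a member within a group was 0.23 on the same scale in topical controls, 0.31 in topical cKO, 0.41 in systemic cKO and 0.59 in systemic controls.

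**Figure D3:**
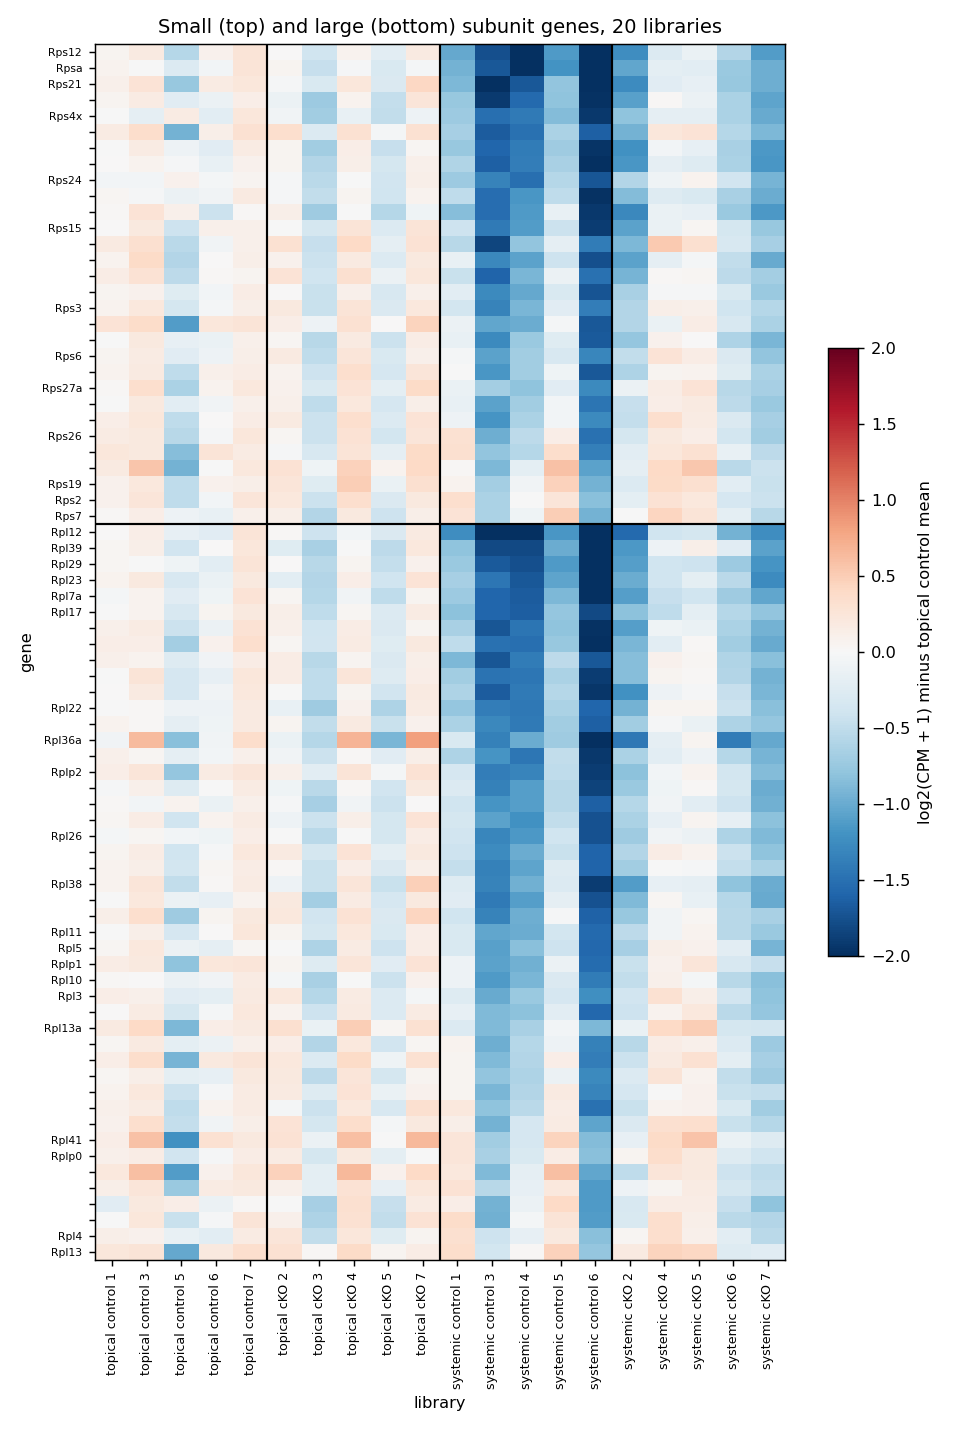
Each tested member (rows, with names for the members described, small subunit above, large below, ordered by the route difference in controls) in each library (columns by group), as log2(CPM + 1) minus its topical control mean. Blue is lower and red higher, with colours ending at -2 and 2. Systemic controls 3, 4 and 6 are lowest, and topical control 5 is lower than its group in most rows.

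The route comparison in controls cannot be told apart from the satellite-like transcripts, since all systemic controls and no topical control exceed 50 CPM of them. With their log2 level as a covariate 0 members were called by edgeR and 22 had an unadjusted p under 0.05, with median log2 fold changes of -0.38 and -0.42 for small and large subunit genes. With the split at 50 CPM as covariate 0 were called, 1 had an unadjusted p under 0.05, and the medians were -0.28 and -0.42. Left out 1 library at a time, 29 (without systemic control 3) to 51 (without systemic control 1) members were called. The hair follicle marker list also differed by route: it summed to between 7583 and 10917 CPM in topical and between 15762 and 27391 CPM in systemic controls. Nearly all of it was Krt15, a keratin of basal cells and the follicle bulge, with 8984 ± 1352 and 21533 ± 4715 CPM, while Cd34 had 2.62 ± 1.29 and 1.66 ± 1.01 CPM and Lgr5 1.98 ± 0.650 and 3.71 ± 2.43 CPM. The part of these in the result was not tested.

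In cKO, the members leaned the same way between routes, but none was called. The log2 fold change of systemic against topical cKO was below 0 for 74 of 76 members (51.5% of all genes), and edgeR's quasi-likelihood test called 0 at an adjusted p under 0.05, where 9.22% of all genes were called and 4.02% called lower. The medians were -0.25 for small and -0.25 for large subunit genes, and 6 members were lower at an unadjusted p under 0.05 (11.3% of all genes). In no member were all systemic cKO libraries below all topical ones, against 3.32% of all genes. DESeq2 called 1 and limma voom 3, all lower. The smallest adjusted p was that of Rpl12, at 0.0672 (log2 fold change -0.73, SE 0.24). Without systemic cKO 2, which leaves no library over 50 CPM of satellite-like transcripts in this comparison, 0 members were called and the medians were -0.19 and -0.19. The hair follicle sum differed here too, from 7361 to 12447 CPM in topical and from 15281 to 19599 CPM in systemic cKO. Its part in the result was not tested.

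The groups overlapped in cKO for every member. Rplp0 had 9594, 6727, 9819, 7485 and 8525 CPM in topical cKO and 8841, 10871, 9781, 7154 and 6516 CPM in systemic cKO (log2 fold change 0.03, SE 0.24, adjusted p 0.953). Rps6 had 1253, 778, 1304, 890 and 1188 CPM against 784, 1332, 1229, 902 and 638 CPM (-0.15, SE 0.25, adjusted p 0.779). Both genes had their highest value of these 10 libraries in systemic cKO 4 and their lowest in systemic cKO 7. Of the members called in controls, Rpl29 had 498, 338, 513, 355 and 524 CPM in topical cKO and 231, 376, 371, 300 and 218 CPM in systemic cKO, with an overlap through topical cKO 3 and 5 (-0.57, SE 0.24, adjusted p 0.154).

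Between genotypes after injection, the members were higher in cKO by an amount that did not pass the test. Of the 76, 74 had a positive log2 fold change against 49.5% of all genes, with medians of 0.43 for small and 0.49 for large subunit genes and -0.0045 over all genes tested. EdgeR's quasi-likelihood test called 0 members, where 1.89% of all genes were called. At an unadjusted p under 0.05, 31 members were higher and 0 lower, against 8.27% of all genes higher and 7.08% lower. DESeq2 called 10 members and limma voom 1, all higher. No member's groups were fully apart, against 1.02% of all genes higher and 0.918% lower in every cKO library.

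Rpsa came nearest to a call, at 0.93 (SE 0.25, adjusted p 0.0517), followed by Rpl39 at 1.04 (SE 0.29, adjusted p 0.0615), Rps12 at 0.97 (SE 0.27, adjusted p 0.0639) and Rpl12 at 0.84 (SE 0.25, adjusted p 0.0772). Rpl39 shows the pattern. It had 147, 307, 358, 281 and 156 CPM in systemic cKO against 187, 93.9, 93.0, 165 and 67.9 CPM in systemic controls. Systemic cKO 2 and 7 lay among the controls, and the other 3 above them all. Members with little difference between the routes also had little here: Rplp0 was at 0.23 (SE 0.25, adjusted p 0.720), Rpl4 at 0.09 (SE 0.24, adjusted p 0.908) and Rps2 at 0.04 (SE 0.26, adjusted p 0.960). This comparison and the route comparison in controls share the 5 systemic controls, so their likeness is no separate evidence.

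The number called between systemic genotypes moved with the setting. It was 42, all higher, with the percent of mitochondrially encoded counts as a covariate (1.87 to 7.49% per library). Calls over all genes changed there too: 48.7% of them were lower, against 28.1% in the main fit. With either satellite-like covariate it was 0, but no gene of any kind was called between systemic genotypes there. That 0 is thus not particular to the members. The medians there were 0.11 and 0.20 (log2 level) or 0.063 and 0.18 (split at 50 CPM). Leaving out systemic cKO 2, the cKO library with the most satellite-like transcripts, gave 6 called members, and leaving out systemic control 1 gave 5.

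After topical tamoxifen, no difference between genotypes was detected in these genes. The median log2 fold change of cKO against control was -0.04 for small and -0.06 for large subunit genes, and single members ran from -0.29 (Rps4x, SE 0.24) to 0.21 (Rpl36). Of the 76, 54 were below 0, against 46% of all genes. EdgeR's quasi-likelihood test called 0 members, where 0.129% of all genes were called, and 0 had an unadjusted p under 0.05, against 3.26% of all genes higher and 2.4% lower. DESeq2 and limma voom also called 0. The SE ran from 0.22 (Rpl17) to 0.40 (Rpl36a), and differences of several SE can go uncalled. In the same fit, Rpl39 at 1.04 (SE 0.29) was not called between systemic genotypes. Differences of up to about that size may thus have been missed here. Rps6 was at -0.04 (SE 0.25), Rpl12 at -0.11 (SE 0.24) and Rplp0 at -0.03 (SE 0.24), each with an adjusted p of 0.997.

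**Figure D4:**
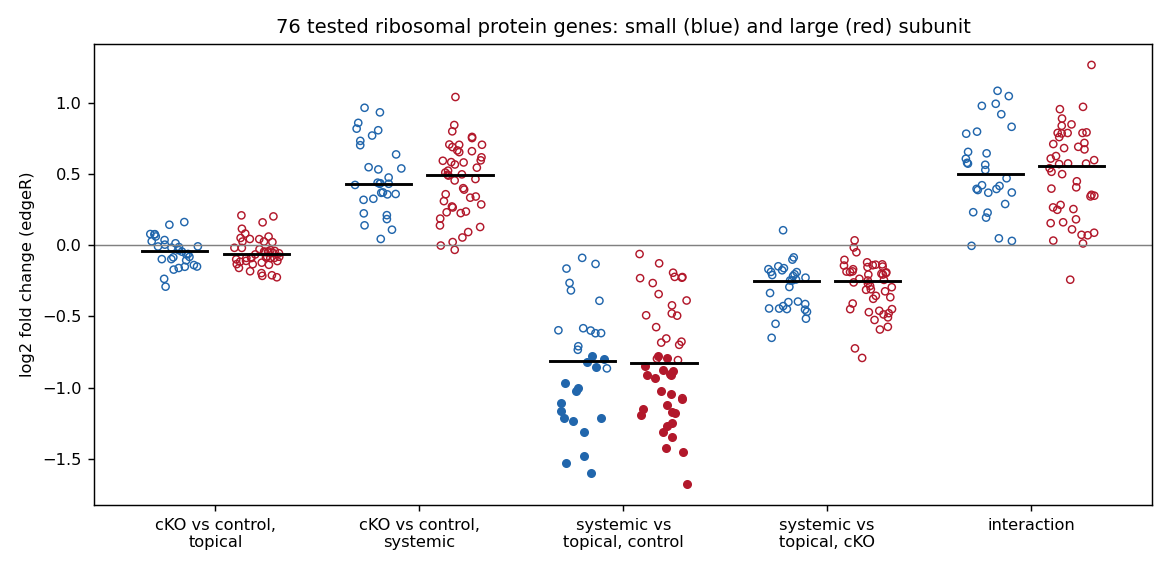
Log2 fold change (y axis) of each of the 76 tested members in the 5 comparisons (x axis), small subunit in blue and large in red. Filled points were called at an adjusted p under 0.05 and black lines are medians. The route comparison in controls is the only one with filled points, 40 of them, all below 0.

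Whether the effect of genotype depended on the route was tested as an interaction. It was positive for 74 of 76 members (47.2% of all genes), with medians of 0.50 for small and 0.56 for large subunit genes. EdgeR's quasi-likelihood test called 0 members, where 0.25% of all genes were called, and 19 were higher at an unadjusted p under 0.05 (7.19% of all genes). DESeq2 called 1 and limma voom 0. Rpl39 had the largest value at 1.27 (SE 0.40, adjusted p 0.144), then Rpsa at 1.09 (SE 0.35, adjusted p 0.152) and Rps12 at 1.05 (SE 0.38, adjusted p 0.198). A difference between the routes in the genotype effect on these genes was therefore not shown. With the percent of mitochondrially encoded counts as a covariate 10 were called, all higher.

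Members with lower levels differed more between the routes. Across the 76 members, Spearman's rho between the route difference in controls and the mean level was 0.55, and that in cKO 0.54. For coding length rho was 0.07 in controls and for GC content of the transcript 0.20. These are descriptions across genes that share 10 libraries and are not independent. The median level of the called small subunit genes was 516 CPM and of those not called 1125 CPM, and for large subunit genes 384 and 1115 CPM. Of the 428 other genes among the 500 of highest mean CPM, 9.35% were called lower, with a median log2 fold change of -0.13. Coding length was compared as well, since these genes are short. Of the 25 shortest members (75 to 399 bases) 13 were called lower, of the 26 of middle length (405 to 564 bases) 15 and of the 25 longest (576 to 1257 bases) 12, against 10.9, 13.3 and 11.1% of other genes of the same lengths.

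**Figure D5:**
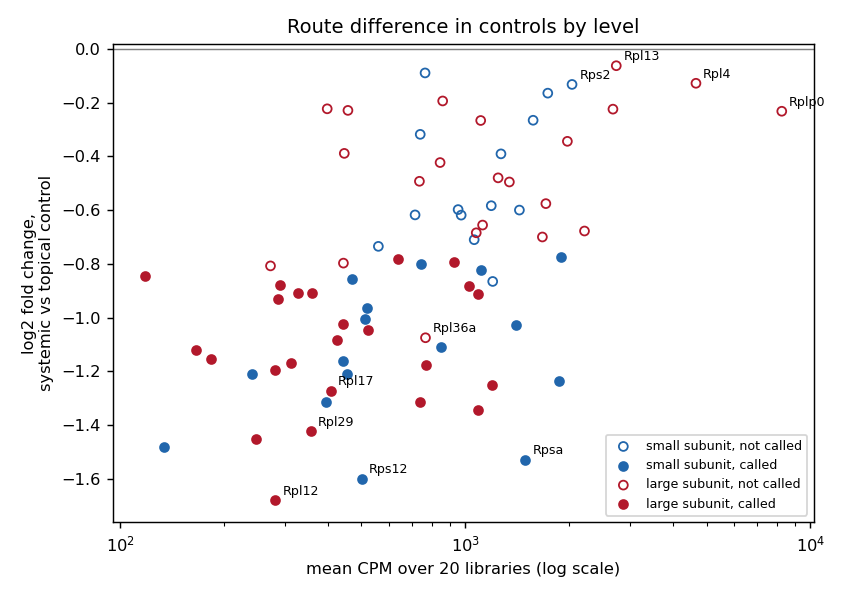
Log2 fold change of systemic against topical controls (y axis) by mean CPM over the 20 libraries (x axis, log scale) for the 76 tested members. Filled points were called at an adjusted p under 0.05. The 3 most abundant, Rplp0, Rpl4 and Rpl13, lie between -0.23 and -0.06 and are open points, and Rpl12, Rps12 and Rpsa lie lowest.

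Ribosomal protein genes and close paralogs outside the symbol rule leaned the same way. Of 9, all had a negative log2 fold change between routes in controls (median -0.55), where 49.9% of all genes did, and 1 was called lower, a share near the 8.16% of all genes. That was Rack1, a small subunit scaffold for signalling proteins, with 1065 ± 93.5 CPM in topical and 369 ± 109 CPM in systemic controls (log2 fold change -1.53, SE 0.22, adjusted p 1.60e-04). Rps3a1 (-0.55, adjusted p 0.113) and Fau (-0.22, 0.635), the latter made as a fusion with a ubiquitin-like protein, did not pass.

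Other parts of the translation machinery moved unevenly. Of 19 translation factors and related genes whose mRNAs carry a TOP motif, 12 fell between routes in controls and 0 rose (median -0.81), beside 8.16% of all genes lower and 10.2% higher. Eef2, the factor that moves the ribosome along, had 4812 ± 983 CPM in topical and 1782 ± 679 CPM in systemic controls (-1.43, SE 0.28, adjusted p 0.00183), and Tpt1 (-1.30, adjusted p 0.00100) and Eif4b (-0.89, adjusted p 0.00116) fell as well. In cKO, 0 of the 19 were called between routes (edgeR; 0 at an unadjusted p under 0.05). Of 37 ribosome assembly genes, 6 fell and 1 rose in controls (median -0.22), beside 8.16% of all genes lower and 10.2% higher. The nucleolar protein genes Ncl (290 ± 50.3 to 145 ± 28.3 CPM, adjusted p 0.00104), Pes1 (log2 fold change -0.84, adjusted p 0.00165) and Wdr12 (-0.57, 0.00195) fell, whereas Nop56, a core protein of small nucleolar particles, rose from 31.8 ± 4.57 to 63.4 ± 8.62 CPM (adjusted p 6.52e-04). Nop56 was also the 1 assembly gene called between systemic genotypes, where it was lower in cKO (-0.90, SE 0.17, adjusted p 0.00932). In cKO, 4 assembly genes fell between routes, beside 4.02% of all genes, among them Wdr12 (-0.52, adjusted p 0.00521) and Mybbp1a (-0.62, adjusted p 0.0120).

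Of 18 regulators of ribosomal protein synthesis, 3 rose between routes in controls and 0 fell (median 0.26). With 10.2% of all genes called higher and 8.16% lower, these counts are near the background. These were Rps6kb2, an S6 kinase (24.2 ± 4.67 to 55.7 ± 10.8 CPM, adjusted p 3.49e-04), Tsc1, an inhibitor of mTOR signalling (log2 fold change 1.08, SE 0.30, adjusted p 0.0179), and Mtor (0.47, SE 0.15, adjusted p 0.0366). Myc, which activates these genes, had 198 ± 38.6 CPM in topical and 235 ± 78.2 CPM in systemic controls (0.24, adjusted p 0.539). Larp1 (0.32, adjusted p 0.311), Rps6kb1 (0.26, 0.204) and Eif4ebp1 (-0.50, 0.215) were not called. In cKO Rps6kb2 was higher (0.68, adjusted p 0.0290) and Akt1 lower (-0.51, adjusted p 0.0244) after injection. Levels of these mRNAs say nothing of the activity of the kinases.

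Mitochondrial ribosomal proteins are encoded by a separate set of 78 nuclear genes. Of these, 15 were called lower between routes in controls and 0 higher, with a median log2 fold change of -0.34, beside 8.16% of all genes lower and 10.2% higher. Mrpl13 (-0.51), Mrpl3 (-0.64) and Mrpl17 (-0.82) had the smallest adjusted p (0.00640, 0.00722 and 0.00814). In cKO 2 were called lower, Mrps18b (-0.58, adjusted p 0.00927) and Mrps27 (-0.49, adjusted p 0.0307), which is no larger a share than the 4.02% of all genes called lower there. Their share of counts was 0.151% ± 0.0105 in topical and 0.129% ± 0.0229 in systemic controls. The difference between the cytosolic and mitochondrial sets was not tested.

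Members rose and fell together from library to library. The Pearson correlation of a member's log2 CPM with the mean of all members over the 20 libraries had a median of 0.953, from 0.674 for Rpl13 and 0.745 for Rps7 to 0.992 for Rpl19. The libraries share the route difference and their scaling, so these values describe the set. The 5 genes outside the rule most like the members by the same measure were Tlcd1 (0.983), Naca (0.975), Rnasek (0.968), Atp5g2 (0.968) and Arpc4 (0.962). Naca, which binds new chains at the ribosome, is on the TOP list. Rpl36a, chosen after its values were seen, had the widest spread of the members in every group but topical controls, with an SD on the log2(CPM + 1) scale of 0.56 to 0.77 per group. It ran from 183 to 755 CPM in systemic controls, with a median of 468 CPM, and had 887, 1454, 521, 886 and 1184 CPM in topical controls, so the groups overlap. Its values were so uneven within groups that its log2 fold change of -1.08 between routes in controls (SE 0.40) had an adjusted p of 0.0658.

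Near-identical copies limit what single values mean. Mouse ribosomal protein genes have many processed pseudogenes, and it is not given in the sources used here how reads that match several places were counted. Rows of pseudogenes named after a ribosomal protein gene with the ending -ps held between 0.0690 and 0.122% of the members' counts per library. Pseudogenes under other names, such as predicted genes, are not in that sum, so it does not give the whole. The paralog Rps27rt (-0.82, adjusted p 0.0688 between routes in controls) and Rps27, Rpl36al (-1.01, 0.0933) and Rpl36a, and Rpl22l1 (-0.63, 0.0713) and Rpl22 may share reads, so their split is uncertain.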

How the data were processed

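The authors deposited 1 table of raw counts, whole-number read counts per gene for 25719 Ensembl mouse genes with symbols and 1 column per mouse. The submitters' processing notes name STAR, featureCounts, GRCm38 and mm10, without versions. Annotation, strand setting and treatment of multi-mapping reads are not given in the sources used here. SmartSeq II libraries, per the labels, cover whole transcripts and have no molecular identifiers described, so intervals cover counting error only. Totals ran from 11588851 to 50082771 counts.

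All 20 libraries were fitted in edgeR 4.0.16 (R 4.3.3): TMM, filterByExpr with its defaults (10 and 15 counts), leaving 12424 genes, robust quasi-likelihood with 1 coefficient per group, two-sided tests, Benjamini-Hochberg over all genes tested, threshold 0.05. In simulated data with 200 of 12424 genes changed by 1.5 (log2) between control routes, 177 were called, with 11 unchanged genes. That change is larger than the members' median changes, and genes were drawn independently of each other. The simulation therefore does not give the sensitivity for the members. Coding length came from GENCODE M21 and promoter windows from RefSeq (GRCm38.p6). Log2 values of single libraries use a pseudocount of 1 CPM. Correlations of members describe and were not tested.

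Named members were the up to 5 called per direction and comparison with the smallest adjusted p, members with a known role, and paralogs; of other lists, up to 3 called per direction plus Myc, Larp1, Rps6kb1 and Eif4ebp1. Members and lists were chosen with earlier results of these data known, and the satellite-like list and covariates after seeing the data. Alternatives were DESeq2 size factors, library totals, TMM without the members, DESeq2 1.42.0 Wald, limma 3.58.1 voom, other filters, non-robust dispersion, only the libraries compared, the mouse number as a block, covariates, offsets for coding length and GC (added later), and leaving out each library. Values of some single genes are not reported here.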

Additional observations from a re-analysis of the deposited data

Results flagged for a closer look

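Among the shares of both subunits, their ratio and the CPM of 29 named members, 128 groups of 5 libraries were examined for a library whose gap to the others exceeds 0.71 of the group's range, and 5 did. Chance gives about 1 in 20 groups. All 5 are topical control 5, which has 12343474 counts. Its ratio of large to small subunit counts was 1.55, where the others of its group had 1.62 to 1.65. Its Rplp1 was 1067 CPM against 2071 to 2197 CPM, its Rplp2 304 CPM against 572 to 617 CPM, its Rpl13a 933 CPM against 1904 to 2289 CPM and its Rps19 1213 CPM against 1820 to 1997 CPM.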

How the results depend on the processing

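The numbers of called members moved as follows, all higher in cKO for the systemic genotypes and the interaction and all lower after injection for the routes. Between systemic genotypes 0 became 5 with the library total alone, 10 with DESeq2, 1 with voom, 3 with a mean of at least 5 CPM, 42 with the mitochondrial covariate, 7 with offsets for length and GC, and 0 to 6 leaving out 1 library. For the interaction it was 1 with DESeq2, 10 with the mitochondrial covariate and 0 to 1 leaving out 1 library (1 without systemic cKO 2). For routes in cKO it was 5 with the library total alone, 1 with DESeq2, 3 with voom, 1 with a mean of at least 5 CPM, 1 with log2 satellite-like CPM, 1 with the mitochondrial covariate, 1 with the offsets, and 0 to 1 leaving out 1 library (1 without systemic cKO 4 or 5). For routes in controls, 40 became 0 with either satellite-like covariate, was 37 to 58 under the other 12 alternatives and 29 to 51 leaving out 1 library. The topical genotype count was 0 throughout. Shares of all genes called are given for the main fit only. Whether the counts of other fits exceed the background of those fits can therefore not be read from them. Why the counts moved was not tested, beyond the overlap of satellite-like transcripts with the route in controls. With library totals alone the median of all genes was -0.11 (systemic) and -0.16 (interaction), against -0.0045 and -0.028 in the main fit. Of the genes called in each comparison, the share that was lower fell from 28.1 to 0% and from 25.8 to 0%.

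Medians of both subunits kept their sign in every fit for routes, systemic genotypes and the interaction, and topical medians turned in 6 (small) and 2 (large) of 24. For the log2 satellite-like level and then the split at 50 CPM, single log2 fold changes between systemic genotypes turned to -0.17 and -0.092 for Rps2, -0.096 and -0.13 for Rps19 and -0.19 and -0.31 for Rpl38, with Rps26 at -0.085 and Rpl4 at -0.037 under the first and Rps15 at -0.12 and Rpl41 at -0.0050 under the second. Voom gave -0.063 for Rps2 and -0.028 for Rpl4. Leaving out 1 library they ran from -0.094 to 0.18 (Rps2), -0.0071 to 0.34 (Rps19), -0.00081 to 0.41 (Rps26) and -0.042 to 0.23 (Rpl4). Between routes in controls the 2 satellite-like covariates gave 0.16 and 0.037 for Rps2, 0.13 and 0.16 for Rps19 and 0.032 and 0.073 for Rpl41, and the first gave 0.050 for Rpl4. Leaving out 1 library gave -0.27 to 0.0061 (Rps2) and -0.26 to 0.0071 (Rpl4). Why these turned was not tested.

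Mouse numbers in the sample names are shared between groups and were not treated as pairs in the main fit. Deviations from the group means correlated at -0.38 to 0.40 over 14 pairs of libraries with the same number, 6 above 0.1. Shifts of whole libraries enter these values too, so they do not decide whether the numbers pair mice. With the replicate block 45 members were called for routes in controls and 0 in the other 4 comparisons.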
